A study of Mus musculus with 24 samples.

Results

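The 35 genes described here are those carried by the mitochondrial chromosome of the mouse. They were chosen as every row with MT in the chromosome column of the 24 count tables, which list 49315 genes. The 35 are 13 protein-coding genes and 22 transfer RNA (tRNA) genes, 14 of the tRNA genes on the plus strand of the map and 8 on the minus strand. The mitochondrial ribosomal RNA genes mt-Rnr1 and mt-Rnr2 were not analysed here.

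The study asked how primary astrocytes respond to X-rays. Cells were grown from the brain cortex of wild type C57BL/6J mice, with the cortices of all late-gestation embryos of a pregnant mouse pooled and the meninges and hippocampi removed. Passage 1 cultures received 0 Gy (mock, with the source switched off), 0.1 Gy or 2 Gy of 200 kV X-rays at 1 Gy/min and room temperature, and RNA was taken after 6 h or 24 h. Messenger RNA was selected by its poly(A) tail and sequenced as read pairs. The 6 groups of dose and time held 4 libraries each, numbered 1 to 4 within a group. The labels only number the libraries, and the study describes the 4 of a group as biological repeats. The p-values measure the spread between these repeats. In fits that take out the level of each number, they measure the spread of the differences within numbers. All groups shared the strain, the genotype and the culture, so that dose and time were the only labelled differences.

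The mitochondrial genome is a small circle whose messages all encode subunits of the respiratory chain and ATP synthase. The ND genes encode subunits of complex I, Cytb a subunit of complex III, the CO genes the catalytic core of complex IV and the ATP genes subunits of complex V, while most subunits of these complexes come from nuclear genes. Each strand is transcribed as a long precursor, the tRNAs that punctuate it are cut out, and the released messages receive short poly(A) tails. The tail is part of the message itself in genes whose last codon is incomplete, because adding A to a final T or TA completes the stop codon. The mt-Nd6 message, the only one read from the light strand, is known to lack a stable tail, and the tRNAs carry no poly(A) tail.

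Total counts per library were between 14742855 and 38194800 (median 24829888.5). Markers of astrocytes were present, with 10 of 10 genes detected and a summed level of 2037 to 2926 CPM. CPM are the counts of a gene scaled to the usual common total by the size of its library and its TMM scaling factor. Markers of other brain cells were also found. The 8 microglial markers summed to between 164 and 200.2 CPM in the 6 libraries numbered 2 and to between 1085 and 1823 CPM in the other 18, so that the libraries numbered 2 stood apart in every group. Markers of fibroblasts and vessels (8 of 8 detected) summed to between 3520 and 7833 CPM. Most of this sum was Acta2, with 2930 to 7369 CPM, while Col1a1 had 118 to 880 CPM. Markers of neurons summed to between 213 and 550.0 CPM and of the oligodendrocyte lineage to between 288 and 816 CPM. The part of these markers in the results below was not tested. Rows of the ribosomal RNA repeat (Gm42418, Gm26917 and AY036118), a sign of ribosomal RNA carried through the selection, took between 0.412% and 10.5% of the counts.

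The ends of the protein-coding genes are shown first, because poly(A) selection depends on what is added there. Each line gives the last 24 bases of the gene in the GENCODE M21 transcript of the GRCm38 build, with the stop codon, or the lone T that stands for it, in capitals. Of the 13 genes, 10 end in a complete stop codon and 3 in a lone T.
mt-Nd1 (chrM:3684-3707, plus strand): gcgggagtaccaccatacataTAG
mt-Nd2 (chrM:4928-4951, plus strand): ctagccccccaactaattaccTAG
mt-Co1 (chrM:6849-6872, plus strand): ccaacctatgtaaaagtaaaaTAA
mt-Co3 (chrM:9367-9390, plus strand): tctccatttattgatgaggatctT
mt-Nd4 (chrM:11521-11544, plus strand): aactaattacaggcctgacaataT
mt-Nd5 (chrM:13542-13565, plus strand): ttatactcaattaatctcgagTAA
mt-Nd6 (chrM:13552-13575, minus strand): attatcgagattactcgagatTAA
mt-Cytb (chrM:15265-15288, plus strand): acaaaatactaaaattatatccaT
The mt-Nd5 and mt-Nd6 genes run toward each other and share their last 14 bases on opposite strands. Whether the counting used the strand is not given in the sources used here, so reads of the light-strand message of mt-Nd6 cannot be told apart from antisense RNA of the same place.

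A stretch of the mitochondrial genome has a near-identical copy on chromosome 1, and the genes inside it are described apart from the others. The bases 6390 to 11042 of the mitochondrial map (4653 bases) correspond to a row of annotated pseudogenes at chr1:24611535-24616188. Over the 7 pairs of gene and copy, 4140 bases could be aligned and 2 of them differed. A 60-base stretch of mt-Co2, of its copy Gm28661, of mt-Nd3, of its copy Gm28438, of mt-Cytb and of an older copy of mt-Cytb on chromosome 4, Gm11410, shows the difference between recent and old copies, with the bases that differ within a pair in capitals.
mt-Co2 (chrM:7323-7382, plus strand): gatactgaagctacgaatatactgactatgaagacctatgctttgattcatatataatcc
Gm28661 (chr1:24615196-24615255, minus strand): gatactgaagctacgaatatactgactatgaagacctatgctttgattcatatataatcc
mt-Nd3 (chrM:9459-9518, plus strand): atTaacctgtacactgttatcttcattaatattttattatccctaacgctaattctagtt
Gm28438 (chr1:24613060-24613119, minus strand): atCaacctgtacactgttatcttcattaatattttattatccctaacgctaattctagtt
mt-Cytb (chrM:14687-14746, plus strand): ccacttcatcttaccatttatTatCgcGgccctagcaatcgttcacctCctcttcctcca
Gm11410 (chr4:80004531-80004590, plus strand): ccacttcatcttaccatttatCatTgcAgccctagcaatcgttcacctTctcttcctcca
The recent copy of mt-Co2 matched it base for base here, and the older copy of mt-Cytb did not.

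The 6 protein-coding genes that lie inside the copied stretch (mt-Co2, mt-Atp8, mt-Atp6, mt-Co3, mt-Nd3 and mt-Nd4l) had few counts, and so had their copies. Their median levels over the 24 libraries were between 2.81 and 18.5 CPM per kb. The 7 protein-coding genes that lie outside the stretch or only partly in it had medians of between 1200 and 5968 CPM per kb. In raw counts, mt-Co2 had a median of 65 per library and its copy Gm28661 a median of 72, while mt-Cytb had a median of 98754.5 and its older copy Gm11410 a median of 0. The 11 rows inside the stretch held between 0.0499% and 0.131% of the mitochondrial counts. The sources used here do not give how reads that match more than 1 place were handled, so the levels of these 6 genes are uncertain and are not read as levels of their transcripts. The part of the copy in their low counts was not tested.

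**Figure D1:**
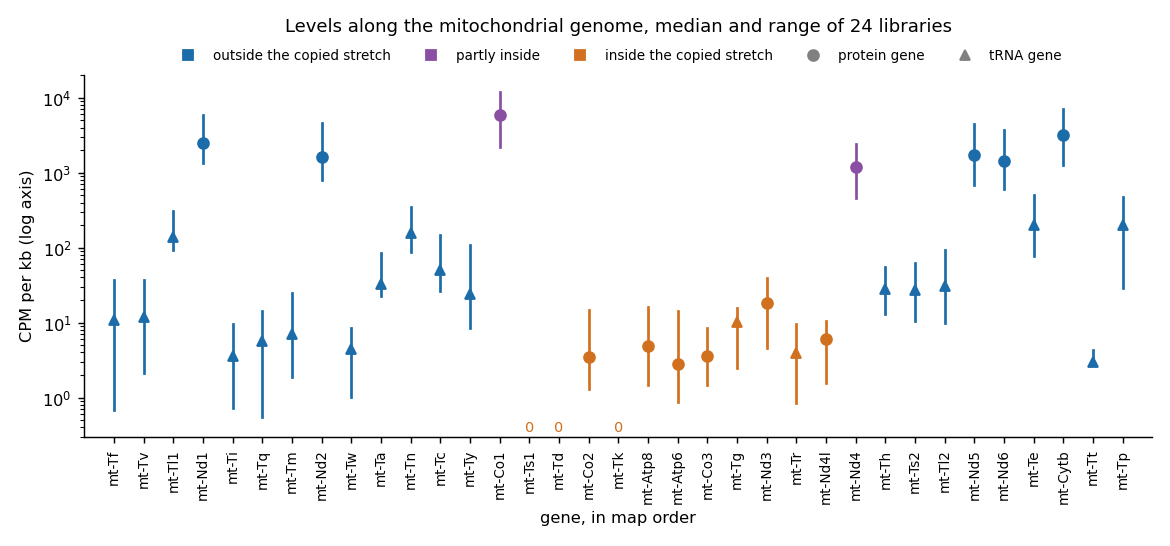
Level of each of the 35 mitochondrial genes in map order, in CPM per kb on a log axis. Points give the median and lines the lowest to highest of 24 libraries, except that the line of mt-Tt, at 0 in 1 library, starts at its median. Colour marks the place relative to the stretch copied on chromosome 1, circles mark protein-coding genes, triangles tRNA genes and a 0 a gene with a median of 0. The medians of the 6 protein-coding genes inside the stretch lie at or below 18.5 CPM per kb and those of the other 7 at 1200 CPM per kb or more.

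The 7 other protein-coding genes, called measurable below, were mt-Nd1, mt-Nd2, mt-Co1, mt-Nd4, mt-Nd5, mt-Nd6 and mt-Cytb, and they held between 99.5% and 99.7% of the mitochondrial counts in each library. On the per-length scale, mt-Co1 had the highest level, with a median of 5968 CPM per kb. It was followed by mt-Cytb at 3160, mt-Nd1 at 2491, mt-Nd5 at 1721, mt-Nd2 at 1615, mt-Nd6 at 1447 and mt-Nd4 at 1200 CPM per kb. Over full gene lengths, mt-Co1 was above mt-Cytb in 24 of 24 libraries, mt-Nd1 above mt-Nd2 in 24 of 24 and mt-Nd6 above mt-Nd4 in 24 of 24. The levels of mt-Nd2 and mt-Nd5 could not be ordered (mt-Nd2 higher in 12 of 24 libraries), mt-Nd5 was above mt-Nd6 in 17 of 24 and mt-Cytb above mt-Nd1 in 21 of 24. The place of mt-Nd4 depended on the length used, because 876 of its 1378 bases lie in the copied stretch. Over its other 502 bases alone its median would be 3293 CPM per kb, above mt-Nd6 in 24 of 24 libraries and above mt-Cytb in 13 of 24. On the same footing mt-Co1, with 483 of 1545 bases in the stretch, would be at 8682 CPM per kb and above mt-Cytb in 24 of 24.

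The ratio of mt-Nd5 to mt-Cytb in CPM, genes of the same precursor, was not the same in all libraries. It lay between 0.737 and 1.14 in 11 of the 12 libraries at 6 h and was 0.489 in library 4 of 0 Gy at 6 h. At 24 h it was below 0.6 in the 3 libraries numbered 3, with 0.457 at 0 Gy, 0.579 at 0.1 Gy and 0.347 at 2 Gy, and in library 4 of 0.1 Gy at 0.505, and between 0.664 and 1.00 in the other 8. The libraries numbered 3 also had the lowest ratio of mt-Nd2 to mt-Nd1 of their groups at 24 h (0.487, 0.587 and 0.509 at 0, 0.1 and 2 Gy), so that the genes did not vary as a fixed block.

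The tRNA genes gave between 551 and 3050 counts per library in all, which was 0.00374% to 0.0119% of the counts. Among those outside the copied stretch, median levels were between 2.97 CPM per kb for mt-Tt, the tRNA of threonine, and 202 CPM per kb for mt-Tp, the tRNA of proline. The highest were mt-Tp at 202, mt-Te (glutamate) at 200.3, mt-Tn (asparagine) at 156 and mt-Tl1 (a leucine tRNA) at 138 CPM per kb. Of these 4, named after their levels were seen, mt-Tp, mt-Te and mt-Tn are light-strand genes. Inside the copied stretch, mt-Td (aspartate) was at 0 in all 24 libraries, mt-Tk (lysine) in 23 and mt-Ts1 (a serine tRNA) in 19, where a count of 0 allows up to 3 counts in a library. The tRNA genes with the highest medians are given whole, on the strand of the tRNA and with no base set apart.
mt-Tp (chrM:15356-15422, minus strand): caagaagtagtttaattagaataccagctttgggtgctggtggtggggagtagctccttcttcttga
mt-Te (chrM:14071-14139, minus strand): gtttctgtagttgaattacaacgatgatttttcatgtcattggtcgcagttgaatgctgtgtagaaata
The level of mt-Tp differed between replicate numbers in every dose and time group. Its CPM had a median of 4.39 (range 1.96 to 5.75) in the 6 libraries numbered 1, 9.29 (4.59 to 10.5) in those numbered 2, 22.7 (16.8 to 31.4) in those numbered 3 and 22.1 (16.6 to 27.7) in those numbered 4. The libraries numbered 1 or 2 thus did not overlap those numbered 3 or 4. The counts do not separate mature tRNA from unprocessed precursor.

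The share of all counts that fell on the 35 mitochondrial genes differed strongly between libraries of the same group. At 0 Gy and 6 h it was 1.25%, 2.42%, 3.07% and 1.96% in libraries 1 to 4, at 0.1 Gy 1.36%, 2.56%, 3.47% and 2.14%, and at 2 Gy 1.49%, 4.22%, 2.93% and 3.62%. At 24 h it was 2.17%, 4.97%, 1.90% and 3.65% at 0 Gy, 1.47%, 2.57%, 2.26% and 2.21% at 0.1 Gy, and 0.947%, 2.09%, 1.91% and 2.18% at 2 Gy. All 6 groups overlapped, and in the 5 groups other than 0 Gy at 24 h library 1 had the lowest share.

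The group means at 6 h were 2.18% ± 0.768 (SD, n = 4) at 0 Gy, 2.38% ± 0.877 at 0.1 Gy and 3.07% ± 1.17 at 2 Gy. At 24 h they were 3.17% ± 1.42 at 0 Gy, 2.13% ± 0.465 at 0.1 Gy and 1.78% ± 0.566 at 2 Gy. The highest library had 5.25 times the share of the lowest, and within a group this fold was between 1.75 and 2.83, so that differences between group means were of the size of the spread within groups. Each share rested on 139676 to 1210730 mitochondrial counts, and the 95% binomial intervals (Wilson) were far narrower than the spread between libraries, for example 1.24% to 1.25% in library 1 of 0 Gy at 6 h. These intervals cover counting error only. In cultured cells measured in bulk, fewer cells of a type and less RNA per cell cannot be told apart.

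**Figure D2:**
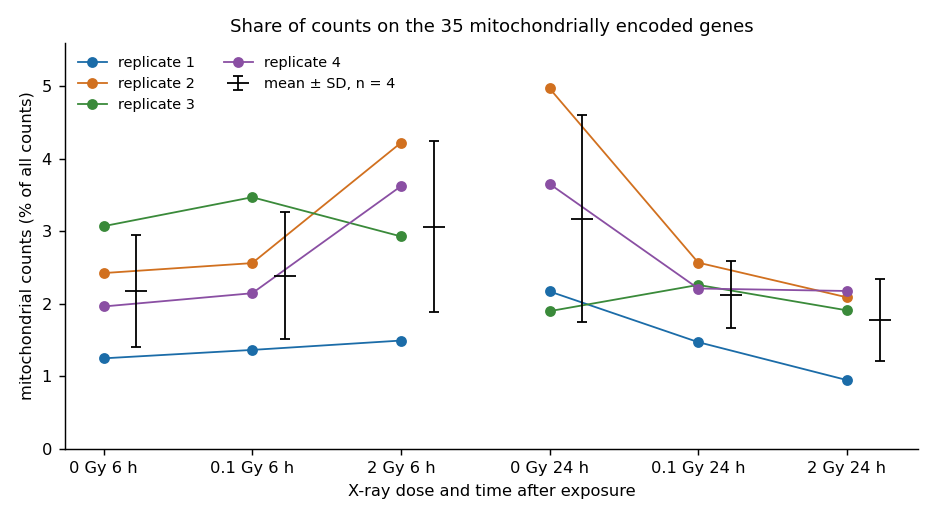
Percent of all counts on the 35 mitochondrial genes in each of 24 libraries, by dose and time. Coloured points are libraries, lines join libraries of the same replicate number within a time, and black marks give the mean ± SD of 4 libraries. At 24 h the lines of replicates 1, 2 and 4 run down from 0 Gy to 0.1 Gy and the line of replicate 3 does not.

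Libraries of the same number varied together within a time. The deviations of all genes from their group means correlated at r = 0.514 to 0.907 between same-numbered libraries of the dose comparisons, so the comparison within a replicate number is given beside the comparison of groups. Over the mitochondrial genes alone this r was between -0.315 and 0.715. At 0.1 Gy and 6 h, the mitochondrial share was 1.09, 1.06, 1.13 and 1.09 times that of the 0 Gy library of the same number. At 2 Gy and 6 h the ratios were 1.20, 1.74, 0.954 and 1.84. At 24 h they were 0.678, 0.517, 1.19 and 0.605 at 0.1 Gy, and 0.437, 0.420, 1.01 and 0.596 at 2 Gy.

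Replicate 3 thus stood apart from replicates 1, 2 and 4 in 3 of the 4 dose comparisons. Both 24 h comparisons shared the 0 Gy libraries. In replicate 3 the 0 Gy library at 24 h had a low share (1.90%) and the 0 Gy library at 6 h a high one (3.07%), and the 24 h to 6 h ratio of the 0 Gy libraries was 1.74, 2.05, 0.618 and 1.86 in replicates 1 to 4.

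The ribosomal RNA repeat rows were read beside these ratios. At 24 h they took 10.5%, 4.44%, 4.24% and 0.969% of the counts in libraries 1 to 4 of 0 Gy, 5.28%, 1.67%, 0.801% and 1.14% at 0.1 Gy, and 7.27%, 7.48%, 0.412% and 2.5% at 2 Gy. The share was lower than at 0 Gy in replicates 1, 2 and 3 at 0.1 Gy and in replicates 1 and 3 at 2 Gy, and higher in the others. With these rows taken out of the total, the mitochondrial share at 24 h was 2.42%, 5.20%, 1.98% and 3.69% at 0 Gy, 1.55%, 2.61%, 2.28% and 2.24% at 0.1 Gy, and 1.02%, 2.26%, 1.92% and 2.23% at 2 Gy. The share remained lower at 2 Gy than at 0 Gy in replicates 1, 2 and 4, and in replicate 3 it moved from slightly higher to slightly lower.

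At 6 h, no mitochondrial gene passed the test at either dose. Of the 28 mitochondrial genes with enough counts to be tested, edgeR's quasi-likelihood test called 0 at 0.1 Gy (0% of the 16020 genes tested were called) and 0 at 2 Gy (0% of 15994), with Benjamini-Hochberg adjustment over all tested genes and an adjusted p under 0.05 as the call. DESeq2 and limma voom also called 0 of them, and 0 had an unadjusted p under 0.05 in edgeR in either comparison. With the replicate number as a block, 0 were called again at both doses (background 0%), and 3 genes at 0.1 Gy and 13 at 2 Gy had an unadjusted p under 0.05.

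For mt-Nd1, the first gene of complex I on the map, CPM at 6 h was 1486, 2223, 3341 and 2003 at 0 Gy and 1795, 3901, 3133 and 4074 at 2 Gy. For mt-Cytb, the mitochondrial subunit of complex III, it was 1860, 3567, 4863 and 3124 at 0 Gy and 2225, 6324, 4692 and 6378 at 2 Gy. The groups overlapped for both genes, with library 3 highest at 0 Gy and libraries 2 and 4 highest at 2 Gy. The fitted log2 fold changes of the 7 genes at 2 Gy were between 0.45 and 0.68 (median 0.55, against -0.00 over all genes), and the median was 0.33 without library 2 of 2 Gy and 0.34 without library 1 of 0 Gy. In the blocked fit they were between 0.43 and 0.66, with edgeR adjusted p between 0.621 and 0.682. At 0.1 Gy the median was 0.13, and all 7 values lay between 0.05 and 0.25. In this comparison of groups the direction turned with single libraries, since the median of the 7 was -0.17 without library 3 of 0.1 Gy, -0.06 without library 1 of 0 Gy, 0.34 without library 1 of 0.1 Gy and 0.37 without library 3 of 0 Gy. In the blocked fit it did not turn, where the median of the 13 protein-coding genes was between 0.06 and 0.12 whichever replicate number was left out.

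**Figure D3:**
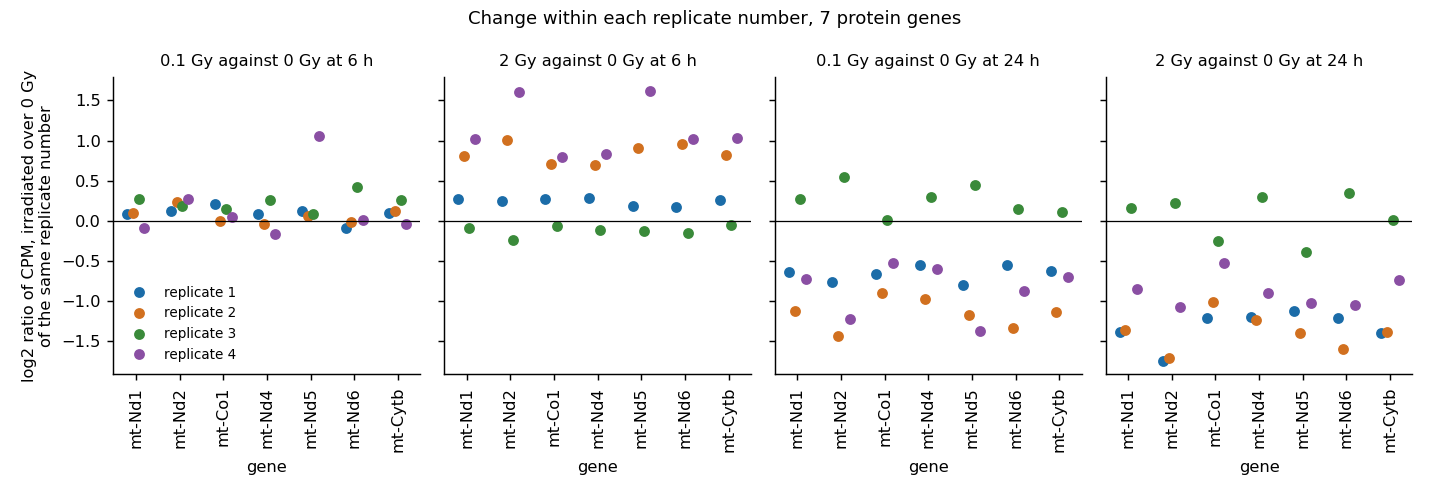
Log2 ratio of CPM between the irradiated library and the 0 Gy library of the same replicate number, for the 7 measurable protein-coding genes, in the 4 dose comparisons. Each point is a gene in a replicate number, coloured by number, and the line marks no difference. At 24 h, replicates 1, 2 and 4 lie below the line for all 7 genes at both doses, while replicate 3 lies above it for 7 of 7 genes at 0.1 Gy and for 5 of 7 at 2 Gy.

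At 24 h, the 7 genes had lower mean levels after 0.1 Gy and 2 Gy than at 0 Gy. In the comparison of groups, edgeR called 0 of 28 mitochondrial genes at 0.1 Gy (0% of 16183 genes called) and 0 of 28 at 2 Gy (0% of 15892), with 10 and 11 at an unadjusted p under 0.05. DESeq2 and limma voom also called 0 at both doses. The fitted log2 fold changes of the 7 genes at 2 Gy were between -1.21 and -0.74 (median -0.88, against 0.01 over all genes), and at 0.1 Gy between -0.91 and -0.52 (median -0.66, against -0.01). Without library 2 of 0 Gy, the library with the highest share, these medians were -0.60 and -0.40.

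The blocked fit, which takes out the level of each replicate number, called mitochondrial genes at both doses at 24 h. At 0.1 Gy, 11 of 28 mitochondrial genes were called and all 11 were lower, which was 39.3% of the tested members against a background of 4.5% of all genes called lower. These were mt-Nd1, mt-Nd5, mt-Nd6, mt-Co1, mt-Cytb and the tRNAs mt-Tf, mt-Tv, mt-Tl1, mt-Tm, mt-Ta and mt-Ty. The same block in DESeq2 called 1 mitochondrial gene at 0.1 Gy, mt-Tl1 (1766 of 30076 genes in all). The DESeq2 totals include genes that were given no adjusted p. The fit called 0 of the 7 measurable genes, whose DESeq2 adjusted p was between 0.110 and 0.352. The calls at 0.1 Gy given below for these genes thus hold in edgeR and not in DESeq2. DESeq2 gave mt-Tf, mt-Tv, mt-Tm, mt-Ta and mt-Ty no adjusted p at 0.1 Gy, so it did not judge those edgeR calls. At 2 Gy, 7 of 28 were called, all lower, or 25% of those tested against a background of 6.69% called lower. These were mt-Nd1, mt-Nd2, mt-Nd5, mt-Co1, mt-Cytb, mt-Tl1 and mt-Tm. In DESeq2 the block called 8 (2320 of 29840 genes in all), with mt-Co1, mt-Nd5, mt-Tl1, mt-Te, mt-Ty, mt-Co2 and mt-Atp6 lower and mt-Nd3 higher. The 2 Gy calls of mt-Nd1, mt-Nd2 and mt-Cytb given below thus hold in edgeR and not in DESeq2 (adjusted p = 0.164, 0.0601 and 0.104). For mt-Tm at 2 Gy, DESeq2 gave no adjusted p (DESeq2 unadjusted p = 0.00180). Without replicate 3 the counts were 22 called at 0.1 Gy (20 lower) and 23 at 2 Gy (20 lower). Without replicate 2 or 4 they were 0 at both doses, and without replicate 1 they were 7 at 0.1 Gy and 0 at 2 Gy.

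Among the complex I genes, mt-Nd1 had 3355, 5656, 2388 and 3751 CPM in libraries 1 to 4 of 0 Gy at 24 h, 2163, 2598, 2883 and 2271 at 0.1 Gy, and 1291, 2204, 2663 and 2091 at 2 Gy. The 0 Gy libraries 1, 2 and 4 were above all irradiated libraries, and library 3 of 0 Gy lay within the range of the irradiated ones. The blocked log2 fold change of mt-Nd1 was -0.57 ± 0.16 (SE, edgeR adjusted p = 0.0496) at 0.1 Gy and -0.86 ± 0.23 (adjusted p = 0.0424) at 2 Gy.

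The second gene of complex I, mt-Nd2, had 2807, 4837, 1162 and 3198 CPM at 0 Gy, 1660, 1793, 1693 and 1365 at 0.1 Gy, and 839, 1482, 1355 and 1517 at 2 Gy. Here library 3 of 0 Gy was lower than every library at 0.1 Gy, and apart from it the 0 Gy group did not overlap the irradiated groups. The blocked change was -0.74 ± 0.23 (edgeR adjusted p = 0.0592) at 0.1 Gy, which missed the threshold, and -1.09 ± 0.29 (adjusted p = 0.0404) at 2 Gy.

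For mt-Nd5, the largest of the complex I genes, CPM was 3211, 8191, 1627 and 4780 at 0 Gy, 1845, 3628, 2227 and 1842 at 0.1 Gy, and 1474, 3109, 1242 and 2351 at 2 Gy. At 2 Gy it was lower than at 0 Gy in 4 of 4 replicates, replicate 3 included, and the groups overlapped. Its blocked change was -0.75 ± 0.21 (edgeR adjusted p = 0.0496) at 0.1 Gy and -0.98 ± 0.16 (adjusted p = 0.0111) at 2 Gy.

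For mt-Nd4, CPM was 1461, 3346, 1474 and 2428 at 0 Gy, 995, 1704, 1808 and 1602 at 0.1 Gy, and 638, 1425, 1804 and 1307 at 2 Gy. Its blocked changes of -0.47 ± 0.15 at 0.1 Gy and -0.76 ± 0.23 at 2 Gy missed the threshold (edgeR adjusted p = 0.0667 and 0.0570). Library 3 of 0 Gy was again close to the irradiated libraries. For the light-strand gene mt-Nd6, CPM was 729, 1931, 716 and 1203 at 0 Gy, 499, 765, 792 and 656 at 0.1 Gy, and 315, 637, 910.1 and 581 at 2 Gy, with blocked changes of -0.67 ± 0.17 (adjusted p = 0.0356) and -0.89 ± 0.26 (adjusted p = 0.0564).

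For mt-Cytb, the subunit of complex III, CPM was 3861, 8156, 3561 and 5901 at 0 Gy, 2497, 3702, 3849 and 3649 at 0.1 Gy, and 1467, 3137, 3580 and 3543 at 2 Gy. Its blocked change was -0.60 ± 0.15 (edgeR adjusted p = 0.0350) at 0.1 Gy and -0.88 ± 0.22 (adjusted p = 0.0337) at 2 Gy. Library 1 was the lowest library in both irradiated groups.

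For mt-Co1, the catalytic subunit of complex IV and the most abundant of the 7 measurable messages, CPM was 8000.4, 18591, 8406 and 12854 at 0 Gy, 5078, 9951, 8469 and 8957 at 0.1 Gy, and 3446, 9232, 7059 and 8926 at 2 Gy. It was lower at 2 Gy than at 0 Gy in 4 of 4 replicates. The blocked change was -0.53 ± 0.13 (edgeR adjusted p = 0.0329) at 0.1 Gy and -0.75 ± 0.16 (adjusted p = 0.0258) at 2 Gy. About a complex V gene outside the copied stretch nothing can be said, since mt-Atp6 and mt-Atp8 both lie inside it.

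Of the 6 protein-coding genes inside the copied stretch, 5 had fitted values below 0 at 24 h at both doses and none of the 6 was called in the blocked edgeR fit, while the block in DESeq2 called mt-Co2 and mt-Atp6 lower and mt-Nd3 higher at 2 Gy. The exception was mt-Nd3, a complex I gene, with 1.75, 5.59, 13.5 and 3.87 CPM at 0 Gy and 3.47, 12.1, 12.1 and 6.76 CPM at 2 Gy. Its blocked value was 0.62 ± 0.22 (edgeR adjusted p = 0.0843, DESeq2 adjusted p = 0.0374) at 2 Gy and 0.49 ± 0.21 (adjusted p = 0.151) at 0.1 Gy. At 2 Gy it was thus the only one of the 13 protein-coding genes with a value above 0, and 12 of 13 lay below.

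Among the tRNAs, mt-Tl1, the leucine tRNA that lies directly before mt-Nd1 on the map, had 14.03, 21.5, 10.3 and 15.9 CPM at 0 Gy, 10.98, 9.67, 11.05 and 7.80 at 0.1 Gy, and 8.11, 10.4, 7.45 and 9.36 at 2 Gy. The groups overlapped through library 3 of 0 Gy. Its blocked change was -0.62 ± 0.17 (edgeR adjusted p = 0.0474) at 0.1 Gy and -0.77 ± 0.12 (adjusted p = 0.0110) at 2 Gy. The methionine tRNA mt-Tm, which lies directly before mt-Nd2, had 1.59, 1.72, 0.221 and 1.67 CPM at 0 Gy and 0.136, 0.491, 0.283 and 0.371 at 2 Gy, with a blocked change of -1.86 ± 0.45 (adjusted p = 0.0321). It rested on 2 to 38 counts per library over the series.

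**Figure D4:**
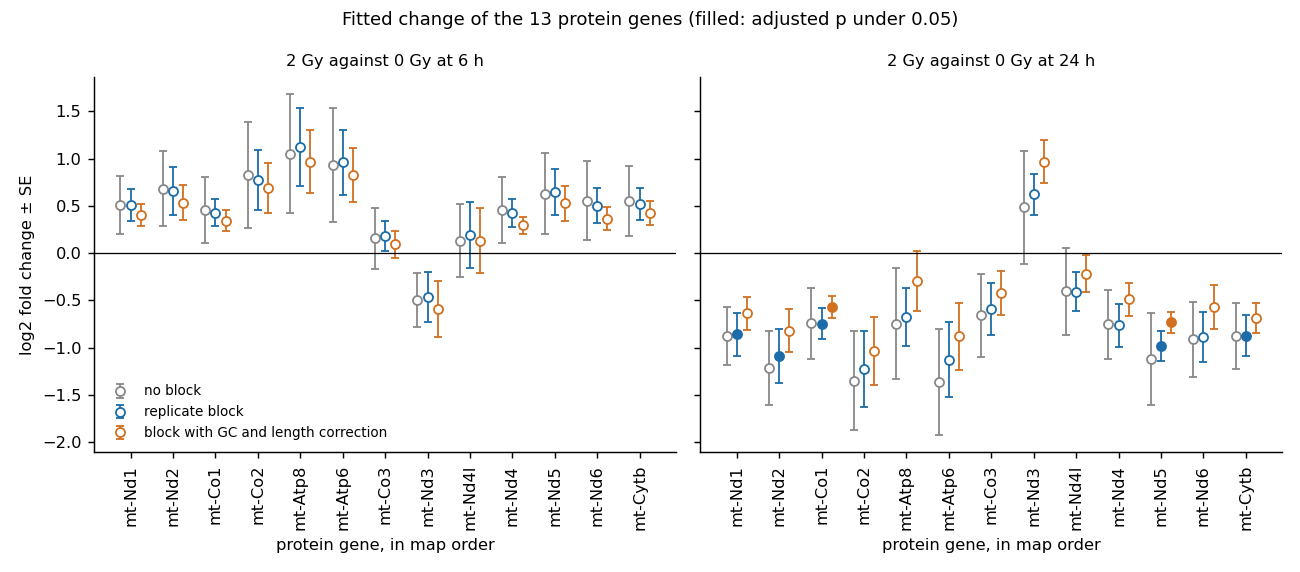
Fitted log2 fold change ± SE of the 13 mitochondrial protein-coding genes for 2 Gy against 0 Gy at 6 h (left) and 24 h (right), in map order, without the replicate block (grey), with it (blue) and with the block and a correction for GC content and length (orange). Filled points have an adjusted p under 0.05 over all tested genes. At 6 h no point is filled, and at 24 h mt-Nd1, mt-Nd2, mt-Co1, mt-Nd5 and mt-Cytb are filled in the blocked fit while mt-Co1 and mt-Nd5 stay filled after the correction.

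GC content was read beside these changes, because the mitochondrial genes are poor in G and C. The 13 protein-coding genes had a GC content of between 31.9% and 41.1%, against a median of 49.6% over the nuclear genes tested. Across 15827 nuclear genes, the unblocked log2 fold change at 2 Gy and 24 h correlated with GC content at r = 0.558, and at 0.1 Gy and 24 h at r = 0.587 across 16117 genes. At 6 h the relation ran the other way (r = -0.343 at 0.1 Gy and -0.372 at 2 Gy). These are correlations across genes of the same libraries, and genes are not independent replicates.

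With an offset for GC content and length estimated on nuclear genes, the lower values of the mitochondrial genes at 24 h became smaller and most calls were lost. The median of the 13 protein-coding genes was -0.57 at 2 Gy and -0.37 at 0.1 Gy in the corrected blocked fit, against -0.86 and -0.60 in the blocked fit. At 2 Gy, 2 of 28 mitochondrial genes were called lower (background 1.7% lower), mt-Co1 with -0.57 ± 0.12 (edgeR adjusted p = 0.0384) and mt-Nd5 with -0.73 ± 0.11 (adjusted p = 0.0126). At 0.1 Gy, 2 were called lower (background 0.507% lower), mt-Co1 and mt-Tm, and 3 were called higher (background 1.34% higher), mt-Nd3, mt-Tl2 and mt-Tp. The values of all 7 measurable protein-coding genes stayed below 0 at both doses. Whether the relation to GC content came from the libraries or from the cells was not tested.

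The difference between the responses to 2 Gy at 24 h and at 6 h was tested as an interaction of dose and time. The unblocked edgeR fit called 0 of 30 mitochondrial genes (0% of 16866 genes called), with 16 at an unadjusted p under 0.05, and DESeq2 and limma voom also called 0. The blocked fit, in which each replicate number has a level of its own at each time so that 6 h and 24 h libraries are not paired, called 11 of 30, all with a more negative response at 24 h, or 36.7% of those tested against a background of 3.23% called lower. They included all 7 measurable protein-coding genes, whose interaction values were between -1.74 and -1.17 on the log2 scale, with mt-Nd5 at -1.62 ± 0.32 (adjusted p = 0.0335) and mt-Co1 at -1.17 ± 0.23 (adjusted p = 0.0335). The other 4 were mt-Tl1, mt-Ta, mt-Ty and mt-Atp6, the last of which lies inside the copied stretch (median 57.5 counts, against 95.5 for its copy Gm10925) and is uncertain. The block in DESeq2 called 11 (2455 of 32056 genes in all), of which mt-Co1, mt-Nd5 and mt-Nd6 were measurable protein-coding genes. The calls of mt-Nd1, mt-Nd2, mt-Nd4 and mt-Cytb thus hold in edgeR and not in DESeq2. Of the 11 called in DESeq2, mt-Nd3 had a more positive response at 24 h, at 1.14 (DESeq2 adjusted p = 0.0192), and the others a more negative one. After the GC and length correction 4 were called (background 0.955% lower), mt-Nd1, mt-Co1, mt-Nd5 and mt-Cytb, with a median over the 13 protein-coding genes of -1.02. Without replicate 1, 2 or 4 the blocked fit called 0, and without replicate 3 it called 21.

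The doses were also compared directly at 24 h. Between 2 Gy and 0.1 Gy, edgeR called 0 of 27 mitochondrial genes (0% of 16002 genes called), with 0 at an unadjusted p under 0.05, and 0 in the blocked fit (background 0%), with 2 at an unadjusted p under 0.05. DESeq2 and limma voom called 0 as well. The mitochondrial share at 2 Gy was 0.644, 0.814, 0.845 and 0.985 times that at 0.1 Gy in replicates 1 to 4. The 7 genes had unblocked values between -0.31 and -0.14.

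Between 24 h and 6 h in the unirradiated cultures, edgeR called 0 of 28 mitochondrial genes (6.7% of 15887 genes called in either direction), with 4 at an unadjusted p under 0.05. DESeq2 and limma voom called 0 as well. The 7 genes had values between 0.34 and 0.99. All 7 were higher at 24 h in replicates 1, 2 and 4 and lower in replicate 3. The mt-Nd2 gene had the highest value, 0.99 ± 0.44 (edgeR adjusted p = 0.198), from 944, 1706, 2361 and 1009 CPM at 6 h to 2807, 4837, 1162 and 3198 CPM at 24 h.

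The nuclear genes that work with the mitochondrial ones were described by lists. Of the 77 nuclear subunits of the respiratory chain and ATP synthase, the blocked fit called 18 higher and 0 lower at 0.1 Gy and 24 h (background 2.34% higher), and 20 higher and 0 lower at 2 Gy and 24 h (background 6.53% higher). In the unblocked edgeR fit 0 were called in either comparison, with 12 at 0.1 Gy and 1 at 2 Gy at an unadjusted p under 0.05. The median log2 fold change of the 77 was 0.24 at 0.1 Gy and 0.27 at 2 Gy in the blocked fit, against -0.00 and 0.00 over all genes. At 2 Gy those called were 8 of 36 subunits of complex I, 1 of 4 of complex II, 2 of 9 of complex III, 4 of 12 of complex IV and 5 of 16 of complex V.

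The subunits with the smallest p at 2 Gy and 24 h were Uqcr11 of complex III, at 0.75 ± 0.09 (SE, edgeR adjusted p = 0.00380), and Atp5d of complex V, at 0.62 ± 0.09 (adjusted p = 0.00973). They were followed by Atp5g3, a subunit of the membrane ring of complex V, at 0.58 ± 0.09 (adjusted p = 0.0104), and Ndufa13 of complex I, at 0.64 ± 0.12 (adjusted p = 0.0177). The medians of the nuclear subunits and of the mitochondrial protein-coding genes thus had opposite signs in these libraries at 24 h. Opposite signs were not limited to these comparisons. The unblocked nuclear median was -0.14 at 0.1 Gy and 6 h, -0.10 at 2 Gy and 6 h, and -0.20 between 24 h and 6 h at 0 Gy. In all of these the unblocked values of the measurable mitochondrial protein-coding genes lay above 0. With the GC and length correction, 22 of 77 were higher at 0.1 Gy (background 1.34% higher) and 10 of 77 at 2 Gy (background 1.81% higher), with medians of 0.17 and 0.16.

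**Figure D5:**
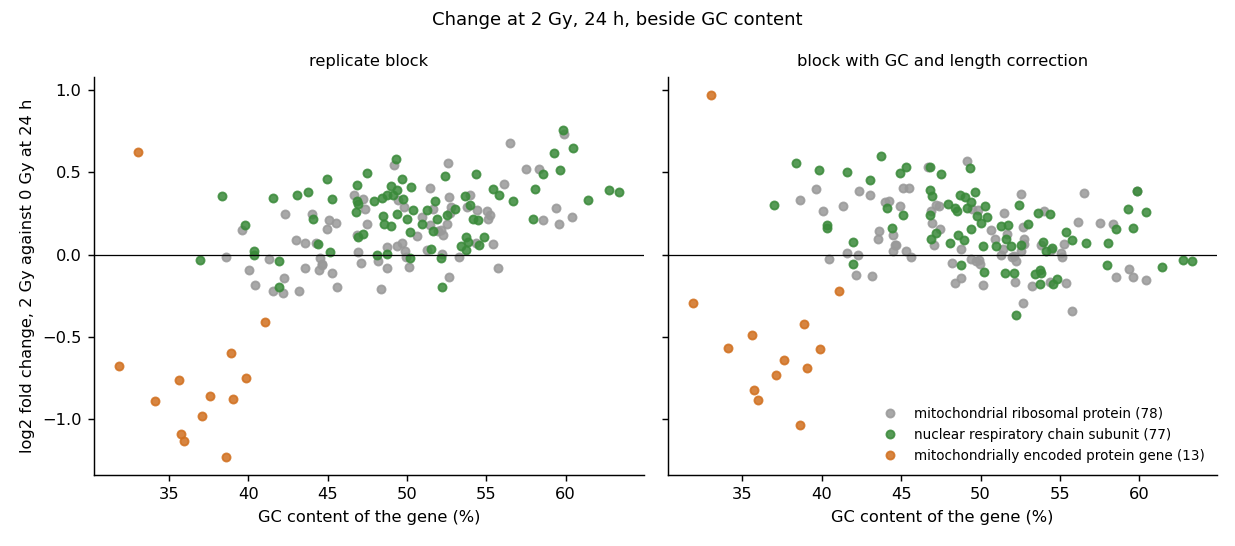
Log2 fold change at 2 Gy against 0 Gy at 24 h (vertical) beside the GC content of the gene in percent (horizontal), in the blocked fit (left) and with the GC and length correction (right). Orange points are the 13 mitochondrial protein-coding genes, green points 77 nuclear subunits of the respiratory chain and ATP synthase, grey points 78 mitochondrial ribosomal proteins. In both panels 12 of 13 orange points lie below 0, and mt-Nd3 is the point above it.

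Mitochondrial ribosomal proteins, which are nuclear products that build the ribosome translating the 13 messages, had 6 of 78 called higher at 0.1 Gy (background 2.34% higher) and 7 of 78 at 2 Gy in the blocked fit, and 0 lower. The share at 2 Gy, 8.97%, was near the background of 6.53%. The unblocked edgeR fit called 0 at both doses, with 1 at 0.1 Gy and 0 at 2 Gy at an unadjusted p under 0.05. Among them Mrpl52 of the large subunit was at 0.56 ± 0.10 (edgeR adjusted p = 0.0142) and Mrps12 of the small subunit at 0.68 ± 0.15 (adjusted p = 0.0245) at 2 Gy. The median of the 78 was 0.14 at 0.1 Gy and 0.13 at 2 Gy. With the GC and length correction 6 (background 1.34%) and 3 (background 1.81%) were called higher.

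Of the 19 genes of mitochondrial DNA transcription and replication, the blocked fit called 0 at 0.1 Gy and 1 at 2 Gy at 24 h, Mterf3, a member of the transcription termination factor family, at -0.38 ± 0.10 (edgeR adjusted p = 0.0365). With 6.69% of all genes called lower, 1 of 19 was no more than the background, and the call was lost with the GC and length correction (-0.15 ± 0.08, adjusted p = 0.310) and in the unblocked fit, where 1 of 19 had an unadjusted p under 0.05. Polrmt, the mitochondrial RNA polymerase, had 25.3, 22.4, 38.6 and 27.3 CPM at 0 Gy and 25.8, 33.7, 40.3 and 28.4 CPM at 2 Gy. These groups overlapped, with a blocked value of 0.19 ± 0.12 (adjusted p = 0.289). Tfam, which packs mitochondrial DNA and starts its transcription, had a blocked value of 0.01 ± 0.10 (adjusted p = 0.970) at 2 Gy and 0.05 ± 0.10 (adjusted p = 0.773) at 0.1 Gy.

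Of the 33 genes of mitochondrial RNA processing, polyadenylation and decay, 1 was called lower at 0.1 Gy (background 4.5% lower) and 2 at 2 Gy (background 6.69% lower) at 24 h, and 0 higher, shares no larger than the background. Pnpt1, the polynucleotide phosphorylase that degrades mitochondrial RNA, was at -0.35 ± 0.10 (edgeR adjusted p = 0.0469) and -0.40 ± 0.10 (adjusted p = 0.0301), and Fastkd2, an RNA-binding protein of the mitochondrion, at -0.45 ± 0.10 (adjusted p = 0.0255) at 2 Gy. With the GC and length correction these calls were lost (Pnpt1 at -0.13 and -0.14, Fastkd2 at -0.19), and Slirp was called higher at 0.1 Gy, at 0.38 ± 0.09 (adjusted p = 0.0469). The unblocked fit called 0, with 0 at an unadjusted p under 0.05 at either dose. Mtpap, the mitochondrial poly(A) polymerase that adds the tails on which the selection depends, had a blocked value of -0.28 ± 0.11 (adjusted p = 0.113) at 0.1 Gy and -0.19 ± 0.09 (adjusted p = 0.184) at 2 Gy. The message stabilisers Lrpprc and Slirp had -0.12 ± 0.09 (adjusted p = 0.370) and 0.20 ± 0.17 (adjusted p = 0.447) at 2 Gy.

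Of the 15 regulators of mitochondrial biogenesis, 3 were called lower at 0.1 Gy and 24 h in the blocked fit (Gabpa, Prkaa1 and Prkaa2; background 4.5% lower). At 2 Gy, Gabpa and Prkaa1 were called lower (background 6.69% lower) and Esrra, a nuclear receptor that drives genes of oxidative metabolism, was called higher at 0.65 ± 0.14 (edgeR adjusted p = 0.0248, background 6.53% higher). All these calls were lost with the GC and length correction, where Esrra was at 0.58 ± 0.15 (adjusted p = 0.0655) at 2 Gy, and in the unblocked fit, where 0 of 15 had an unadjusted p under 0.05 at either dose. Ppargc1a, the coactivator PGC-1α, had -0.36 ± 0.12 (adjusted p = 0.0750) at 0.1 Gy and -0.39 ± 0.12 (adjusted p = 0.0619) at 2 Gy and was not called.

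RNAs that have no poly(A) tail, and nuclear RNAs that are abundant, were read as signs of library quality. Of the RNAs without a tail (small RNAs such as Rn7sk and replication-dependent histones), 7 of 36 tested were lower at 0.1 Gy and 24 h in the blocked fit (background 4.5% lower), among them Rmrp at -1.49 ± 0.23 (edgeR adjusted p = 0.0226) and Rn7sk at -1.02 ± 0.22 (adjusted p = 0.0269), and 0 of 36 were higher. At 2 Gy and 24 h, 0 of 34 were lower and 2 were higher, the histone genes Hist1h4h and Hist1h4i, while Rn7sk was at -0.06 ± 0.58 (adjusted p = 0.954). Of 5 abundant nuclear RNAs, Malat1 and Kcnq1ot1 were called lower at 0.1 Gy (background 4.5% lower) and Kcnq1ot1 at 2 Gy (background 6.69% lower), the latter at -0.83 ± 0.17 and -0.85 ± 0.14 (edgeR adjusted p = 0.0262 and 0.0134). Malat1 was at -0.73 ± 0.13 (adjusted p = 0.0262) at 0.1 Gy and at -0.14 ± 0.19 (adjusted p = 0.650) at 2 Gy, and Neat1 at 0.37 ± 0.14 (adjusted p = 0.0961) and 0.56 ± 0.17 (adjusted p = 0.0556). With the GC and length correction Malat1 at 0.1 Gy was at -0.49 ± 0.13 (adjusted p = 0.0545), Kcnq1ot1 was at -0.30 and -0.38 (adjusted p = 0.273 and 0.167), neither was called any longer, and Neat1 was called higher at 0.1 Gy, at 0.63 ± 0.14 (adjusted p = 0.0276). For RNAs without a tail the corrected fit called 5 of 36 lower at 0.1 Gy (background 0.507% lower) and 0 of 34 in either direction at 2 Gy, where their median moved from 0.01 to -0.31 and 24 of 34 lay below 0. The unblocked fit called 0, with 5 at 0.1 Gy and 3 at 2 Gy at an unadjusted p under 0.05. The part of poly(A) selection and of library quality in the mitochondrial values was not tested.

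The markers of cell types were read in the same fits at 24 h. At 0.1 Gy, 1 of 8 microglial markers (Trem2) and 1 of 7 of the oligodendrocyte lineage (Olig1) were called higher in the blocked fit (background 2.34% higher) and 1 of 5 of neurons (Map2) lower (background 4.5% lower). The 10 astrocyte markers had a median of 0.03, with 5 below 0. At 2 Gy, 2 of 10 astrocyte markers (Gfap and Aldh1l1) and 2 of 8 microglial markers (C1qa and Trem2) were called higher (background 6.53% higher), and P2ry12 of microglia lower (background 6.69% lower). The median of the astrocyte markers was 0.06, with 4 of 10 below 0. Of all these calls, those of Trem2 were kept with the GC and length correction. The unblocked fit called 0 of these markers at both doses, with 1 of 10 astrocyte markers at 0.1 Gy at an unadjusted p under 0.05. The part of cell makeup in the mitochondrial values was not tested.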

How the data were processed

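RNA of 24 cultures was selected by poly(A) tail, sequenced in 1 run, and trimmed and mapped by the sequencing company. The deposited files hold raw counts per gene, not normalised, as the authors' pipeline gave them, and the labels name the build mm10. The aligner, the counter, the use of strand and the handling of reads that match several places are not given in the sources used here. Files were joined by gene identifier. Names and GC content came from GENCODE M21 (GRCm38), with GC for 48970 of 49315 genes. All 35 mitochondrial genes matched.

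Each comparison used the 8 libraries of its groups (16 for the interaction) in edgeR 4.0.16 with R 4.3.3: filterByExpr, TMM scaling, quasi-likelihood test, Benjamini-Hochberg adjustment over all tested genes, and a call at an adjusted p under 0.05 with no minimum fold. The replicate number pairs the libraries within a time, since every r between same-numbered libraries of the dose comparisons was over 0.1 (0.514 to 0.907), and the blocked fit adds it as a factor, within each time for the interaction. The GC and length correction used splines with 5 degrees of freedom fitted to nuclear genes. Levels are CPM with TMM scaling over all libraries, divided by gene length in kb where genes are compared. Nuclear copies were found with blastn 2.17.0+ among transcripts (identity of at least 90% over at least 60 bases). Alternatives were DESeq2 1.42.0, limma voom 3.58.1, other scalings and filters, and leaving out each library. The fits were tested on simulated data in which the doses of a time shared the effect of each replicate number. That test therefore cannot show whether the block suits the real libraries. Any mitochondrial gene could be named. Of the 17 other gene lists (326 genes found, 4 not), those with the smallest p and fixed anchors were named. The members and lists were chosen with earlier results of these data known. Same-group libraries differed beyond counting noise (chi-square per degree of freedom at least 28.3 in 36 pairs). A count of 0 was read as allowing up to 3 counts. Depth, 14742855 to 38194800 counts per library, left the 7 abundant genes with at least 4625 counts in each library.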

Additional observations from a re-analysis of the deposited data

Results flagged for a closer look

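In the 0.1 Gy group at 24 h, the mt-Cytb level of library 1 (2497 CPM) lay apart from those of the other 3 libraries (3649 to 3849 CPM), with a gap of 0.852 of the range of the group, above Dixon's 95% limit for 4 samples. Of 48 groups of 4 libraries looked at in this way, 1 was set apart, and chance sets apart about 1 in 20.

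For 11 mitochondrial genes, the test of the interaction in the blocked fit called a more negative log2 response to 2 Gy after 24 h. The difference from the 6 h response was -1.36 for mt-Nd1, -1.74 for mt-Nd2, -1.17 for mt-Co1, -1.18 for mt-Nd4, -1.62 for mt-Nd5, -1.38 for mt-Nd6, -1.38 for mt-Cytb, -1.30 for mt-Tl1, -1.50 for mt-Ta and -1.82 for mt-Ty. For mt-Atp6, which lies inside the copied stretch and whose level is uncertain, it was -2.10. In the blocked DESeq2 fit mt-Nd1, mt-Nd2, mt-Nd4 and mt-Cytb were not called. None of the 11 passed in the unblocked edgeR fit, where 16 of 30 mitochondrial genes had an unadjusted p under 0.05. Replicate 3 did not show the direction of replicates 1, 2 and 4 for the mitochondrial share, and the share of the ribosomal RNA repeat rows differed between the same libraries. Their part was not tested.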

How the results depend on the processing

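The counts of mitochondrial genes called depended on the replicate block. Without it, edgeR called 0 in all 7 comparisons under each other scaling, filter, tool and sample choice tried, except that 2 were called between 24 h and 6 h at 0 Gy without library 3 of 0 Gy at 24 h (range 0 to 2). With the block, 11 were called at 0.1 Gy and 24 h, 7 at 2 Gy and 24 h, 2 between 24 h and 6 h at 0 Gy (with 2428 of 15887 genes called, and where the lowest r between same-numbered libraries was 0.0887, in replicate 3, so the numbers are not shown to pair) and 11 in the interaction, and the same counts came out with the mitochondrial rows left out of the scaling. The block with GC and length correction gave 5, 2, 4 and 4, and the block in DESeq2, an alternative chosen after seeing the data, 1, 8, 3 and 11. Some mitochondrial genes were given no adjusted p in the DESeq2 fits. The block changed no other call count. Leaving out a replicate number from the blocked fit gave ranges of 0 to 22, 0 to 23, 0 to 19 and 0 to 21, the highest each time without replicate 3 and 0 without replicate 2 or 4 in the dose comparisons. At 0.1 Gy and 6 h the unblocked median of the 13 protein-coding genes ran from -0.21 (without library 3 of 0.1 Gy) to 0.37 (without library 3 of 0 Gy). Without library 2 of 0 Gy at 24 h it moved from -0.88 to -0.54 at 2 Gy and 24 h, from -0.66 to -0.40 at 0.1 Gy and 24 h and from 0.59 to 0.21 between 24 h and 6 h, and at 2 Gy and 6 h it was 0.33 without library 2 of 2 Gy, against 0.55. Between 2 Gy and 0.1 Gy it moved from -0.16 to 0.06 without library 1 of 2 Gy. No value that was called changed sign. Leaving out the mitochondrial ribosomal RNA rows was not run, since none were analysed here. The GC and length correction without the block and the 7 measurable genes as a set were also chosen after seeing the data. Depth was no limit for the 7 abundant genes, but it was for tRNAs with counts near 0, and the levels of the 6 protein-coding genes inside the copied stretch are uncertain.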
